A study of Mus musculus with 12 samples.

Results

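Mitochondrial ribosomal protein genes were followed in the livers of 12 mice. They were taken as the protein-coding genes whose symbol starts with Mrps or Mrpl and a number, with pseudogenes left out and a mean counts-per-million (CPM) value of at least 1 over the 12 libraries. Of 51912 gene identifiers, 83 matched the symbol pattern, 5 of these were pseudogenes, and the other 78 formed the set. The minimum left out none, since the lowest of the 78 had a mean of 6.05 CPM. No measured difference between groups was used in the choice. The 4 groups held 3 mice each: wild-type on a normal chow diet (ND), wild-type on a high-fat diet (HFD), Mlkl-/- on ND and Mlkl-/- on HFD. The HFD held 36% fat and drew 59% of its energy from lipid. Feeding began when the mice were 8 to 9 weeks old. The sample labels give 25 weeks of diet for every mouse, and the series text gives a span of 16 to 25 weeks. MLKL is the pseudokinase that breaks the plasma membrane in necroptosis. The sources used here do not give the strain, the sex, the making of the Mlkl-/- allele or any littermate relation. Livers were chosen for organ weights near the mean.

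Mitochondria keep a ribosome of their own, with a small and a large subunit. It makes a handful of proteins, all of them core subunits of the respiratory chain and the ATP synthase, from messages of the mitochondrial genome. Its RNA is mitochondrial, but its proteins are all encoded in the nucleus, made in the cytosol and imported. Some descend from bacterial ribosomal proteins, and others were added in mitochondria. The hepatocyte is rich in mitochondria, and fatty liver is a setting in which fatty acid oxidation and respiratory capacity are widely studied.

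Each count is 1 read from the 3' end of a polyadenylated transcript, so that levels in CPM can be set side by side across genes without a correction for length. Library totals ran from 19435391 to 32120426 counts. The 78 genes held 0.166% to 0.225% of the counts of a library, and the lowest count of any of them in any library was 117. Mlkl itself had 72 to 252 counts in the 6 wild-type libraries and 9 to 34 in the 6 Mlkl-/- libraries. The 9 hepatocyte markers tested, led by Alb, summed to 61718 to 122762 CPM in every library. The 13 protein genes of the mitochondrial genome were listed at 0 in all 12 libraries, so the products whose translation depends on this ribosome were not measured. In whole liver, fewer cells of a type and less RNA per cell cannot be told apart. The libraries were taken as 12 animals from the animal numbers in their titles.

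The genes fell into 4 structural classes and 1 exception. The large subunit had 30 members with a bacterial counterpart and 21 that are specific to mitochondria, and the small subunit had 16 and 10. Mrps30 and Mrps18a carry small-subunit names but sit in the large subunit, and they were counted there. Mrps36 is the exception: its product is now known as KGD4, a subunit of the 2-oxoglutarate dehydrogenase complex of the citric acid cycle, and not a ribosomal protein. Classes were assigned from background knowledge and not from these data. The genes lay on 17 chromosomes.

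Levels were narrow for most of the set. Of the 78 genes, 73 had a mean between 10 and 50 CPM, the median was 22.5 CPM, and the ratio of the highest to the lowest was 14.3. Mrpl12, which forms the stalk of the large subunit where translation factors dock, stood alone at the top with a mean of 86.8 CPM. Its 12 values ran from 66.8 to 109 CPM. Mrps7, a small-subunit protein with a bacterial counterpart, followed with 50.02 CPM, then Mrpl50 with 48.8, Mrps34 with 46.6 and Mrpl24 with 43.7 CPM. At the other end stood Mrpl19 with 12.4, Mrpl55 with 11.3, Mrps11 with 8.49, Mrps36 with 7.41 and Mrps6 with 6.05 CPM. Class medians were close: 25.0 CPM for large-subunit genes with a bacterial counterpart, 20.4 for the other large-subunit genes, and 19.7 and 23.3 for the matching small-subunit classes. Transcripts for proteins of 1 particle thus differed several-fold in 3' end counts.

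**Figure D1:**
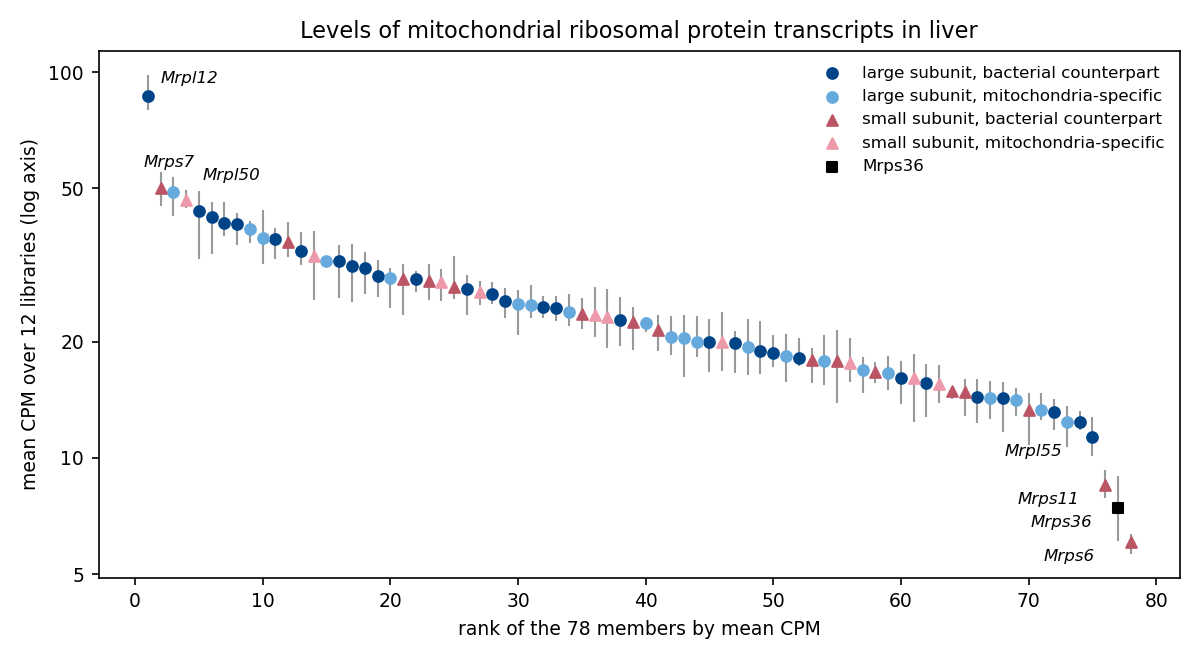
Mean level of each of the 78 genes (CPM over 12 libraries, log axis) against its rank, with colour and shape for the structural class and grey lines from the lowest to the highest of the 4 group means. Mrpl12 at 86.8 CPM stands above all others, 73 genes lie between 10 and 50 CPM, and Mrps11, Mrps36 and Mrps6 lie under 10 CPM.

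The rank order of the genes was much alike in all libraries. Over the 66 pairs of libraries Spearman's rho across the genes was 0.928 at the median and 0.864 at the lowest. This is a description across genes, which share a library and a method, and carries no test. The SD of log2 CPM over the 12 libraries had a median of 0.22 for the set, against 0.24 for the 8730 tested genes within the same range of levels, and 52 of the 78 genes were below that 0.24. Mrpl13 (SD 0.13), Mrpl48 (0.13) and Mrpl9 (0.15), all of the large subunit, varied least. Mrpl13 ran from 25.8 to 33.3 CPM over all 12 libraries, with the 3 wild-type HFD livers (26.6 to 27.2 CPM) below the 3 Mlkl-/- ND livers (28.5 to 33.2 CPM). Mrps21 (SD 0.37), Mrps36 (0.35) and Mrps26 (0.33) varied most. Mrps21 ran from 10.9 to 24.7 CPM, and Mrps26, a small-subunit protein specific to mitochondria, from 11.6 to 22.5 CPM.

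Promoter sequences were looked at because NRF1, the ETS factor GABPA and YY1 are textbook regulators of nuclear genes for mitochondrial proteins. RefSeq windows of 250 bases before to 50 after a start site (GRCm38.p6, the assembly behind mm10) were found for 69 of the 78 genes, as 75 windows. Mrpl24, Mrps33 and Mrps21 are shown because their levels were among those that differed most with diet in wild-type livers, Mrpl12 as the most abundant gene, and Mrps27 because its groups were apart in each of the 4 simple comparisons. Each is given 5' to 3' on the strand of the gene, 250 bases before to 30 after the start, with motif matches in capitals. The positions are chr3:87919294-87919573 (+) for Mrpl24, chr6:39810907-39811186 (-) for Mrps33, chr3:95871485-95871764 (-) for Mrps21, chr11:120484387-120484666 (+) for Mrpl12 and chr13:99344536-99344815 (+) for Mrps27.
Mrpl24: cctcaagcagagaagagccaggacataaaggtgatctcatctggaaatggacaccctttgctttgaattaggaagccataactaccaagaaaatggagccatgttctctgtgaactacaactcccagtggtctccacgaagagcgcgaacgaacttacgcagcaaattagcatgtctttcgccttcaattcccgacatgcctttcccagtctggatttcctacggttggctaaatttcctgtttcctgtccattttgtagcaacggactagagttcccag
Mrps33: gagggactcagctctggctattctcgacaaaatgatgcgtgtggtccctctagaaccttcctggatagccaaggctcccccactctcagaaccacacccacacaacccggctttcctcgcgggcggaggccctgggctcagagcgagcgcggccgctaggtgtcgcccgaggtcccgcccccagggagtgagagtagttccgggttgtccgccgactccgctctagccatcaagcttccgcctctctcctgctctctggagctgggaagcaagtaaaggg
Mrps21: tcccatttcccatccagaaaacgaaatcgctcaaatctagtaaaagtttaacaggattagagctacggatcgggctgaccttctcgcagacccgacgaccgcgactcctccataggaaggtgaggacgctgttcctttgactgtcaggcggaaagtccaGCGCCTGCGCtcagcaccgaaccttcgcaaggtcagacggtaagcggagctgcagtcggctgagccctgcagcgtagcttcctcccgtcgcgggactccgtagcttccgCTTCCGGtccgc
Mrpl12: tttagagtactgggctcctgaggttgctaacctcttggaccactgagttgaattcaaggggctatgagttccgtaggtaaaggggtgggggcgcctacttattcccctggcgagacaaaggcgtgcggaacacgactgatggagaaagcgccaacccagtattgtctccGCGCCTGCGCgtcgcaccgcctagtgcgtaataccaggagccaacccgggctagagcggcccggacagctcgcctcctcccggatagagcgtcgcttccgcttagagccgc
Mrps27: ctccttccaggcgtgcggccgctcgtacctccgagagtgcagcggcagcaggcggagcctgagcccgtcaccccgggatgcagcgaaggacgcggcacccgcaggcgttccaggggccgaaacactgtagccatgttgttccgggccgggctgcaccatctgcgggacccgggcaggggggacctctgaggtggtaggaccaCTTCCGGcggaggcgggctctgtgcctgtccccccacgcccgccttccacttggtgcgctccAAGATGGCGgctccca

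A match may read on either strand, so that ETS letters appear as CTTCCGG above. The capitals in Mrps21 mark an NRF1 match and, after the start site, an ETS match. Those in Mrpl12 mark an NRF1 match, and those in Mrps27 an ETS and a YY1 match. Mrps33 has an ETS match 38 bases after its start, past the bases shown, and Mrpl24 has no match to the motifs searched in its window. The letters searched, on both strands, were GCGCA and GCGC with any base between them for NRF1, CCGGAAG for ETS, AANATGGCG for YY1, CACGTG for the E-box and TATAAA for the TATA box. The end of the ETS letters can be the start of the YY1 letters, and 0 genes of the set had matches to different motifs that overlapped.

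The set's windows held NRF1 letters in 17.3%, against 6.38% of the 21263 windows of all protein-coding genes. ETS letters were in 34.7% against 11.6%, and YY1 letters in 14.7% against 3.12%. For the E-box the shares were 9.33% and 7.84%, and for the TATA box 6.67% and 12.6%. Counted by gene with a window, the E-box order turned, with 7.25% in the set and 8.91% in all protein-coding genes. Overlapping windows of Mrpl2 held the same E-box match. Median GC content was 58.7% in the set and 56.3% in all windows. Of the 69 genes with a window, 42 held NRF1, ETS or YY1 letters, 8 held at least 2 of these and 27 held none. Cytosolic ribosomal protein genes had 8.22%, 35.6% and 13.7% of windows with NRF1, ETS and YY1 letters, and respiratory chain genes 26.9%, 23.9% and 14.9%. The ETS share of the set was thus nearer that of the cytosolic ribosome, and its NRF1 share lay between the lists. With HFD in wild-type livers the median log2 fold change was -0.19 for the 26 genes with ETS letters and -0.18 for the 43 without, and -0.16 and -0.19 for the 13 with and the 56 without NRF1 letters. It was -0.13 for the 11 genes with YY1 letters and -0.19 for the others. For the E-box it was -0.31 with and -0.18 without, and for the TATA box -0.020 and -0.19, with 5 genes holding the letters in each case. These medians were not tested. A match is a description of letters in a window and not a bound site.

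HFD against ND in wild-type livers asks how the set responds to the diet where MLKL is present. Only Mrpl24 and Mrps33 passed the test, and both fell. Calls here mean an adjusted p below 0.05 (edgeR's quasi-likelihood test, Benjamini-Hochberg over the 18098 genes tested). Both calls are 2 of 78 genes, while 4.23% of all genes tested were called in this comparison, 2.21% lower and 2.02% higher, so the share is near the background. At an unadjusted p under 0.05, 18 genes of the set were lower and 0 higher, where 10.8% of all genes were lower and 9.61% higher.

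Mrpl24, a large-subunit protein with a bacterial counterpart, had 46.3, 51.3 and 45.2 CPM in the wild-type ND livers and 33.4, 30.3 and 34.9 CPM in the wild-type HFD livers. In Mlkl-/- livers it had 51.0, 50.6 and 46.0 CPM on ND and 47.6, 48.5 and 39.0 CPM on HFD. The 3 wild-type HFD livers lay below the other 9. The log2 fold change with HFD in wild-type livers was -0.54 ± 0.13 (SE; edgeR adjusted p = 0.0305), from 47.6 ± 3.23 to 32.8 ± 2.31 CPM (SD, n = 3). Leaving out any 1 wild-type library or Mlkl-/- ND replicate 2 ended the call, with fold changes of -0.46 to -0.58 and adjusted p up to 0.154 over the 12 fits.

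The 3' end of Mrpl24 lies over another gene. On mm10, Mrpl24 (ENSMUSG00000019710) spans chromosome 3 from 87919506 to 87923672 on the plus strand, and Rrnad1 from 87922601 to 87930717 on the minus strand, an overlap of 1072 bp. Rrnad1 fell too in wild-type livers with HFD, by 0.64 ± 0.13 on the log2 scale (SE; edgeR adjusted p = 0.0195), from 21.8 ± 0.743 to 14.02 ± 0.171 CPM (SD, n = 3). The sources used here do not give the strand setting of the counting, so reads from the genes of this pair cannot be told apart with certainty. Of the 78 genes, 11 had an exon of another gene within their last 500 bp, 9 of them on the opposite strand and 3 on the same strand, with Mrps34 on both. Mrpl12, Mrps7 and Mrps18b were among the 9. The called Mrps33 was not among the 11, nor were Mrps21, Mrps27 and Mrpl45.

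Mrps33, a small-subunit protein specific to mitochondria, had 18.2, 19.9 and 17.6 CPM in wild-type ND livers and 12.9, 11.8 and 12.5 CPM in wild-type HFD livers. The Mlkl-/- livers had 17.9, 14.8 and 12.9 CPM on ND and 19.8, 19.4 and 15.4 CPM on HFD. The wild-type groups were apart, and the Mlkl-/- groups overlapped. The change in wild-type livers was -0.58 ± 0.15 (log2, SE; edgeR adjusted p = 0.0471), and 3 of the 12 fits without 1 library kept the call, the range of adjusted p being 0.0257 to 0.193. Library size in place of TMM gave -0.39 for Mrps33 and -0.34 for Mrpl24, neither called.

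Mrps21, the counterpart of bacterial S21, had the most negative fold change of the set without a call, -0.62 ± 0.22 (edgeR adjusted p = 0.122). Its values were 20.1, 24.7 and 19.7 CPM on ND and 14.9, 15.8 and 10.9 CPM on HFD in wild-type livers, with no overlap. Mrpl52 was at -0.54 ± 0.17 (adjusted p = 0.0950, edgeR), from 23.5 ± 2.24 to 16.2 ± 0.254 CPM (SD, n = 3). A fit of the wild-type groups alone called 4 genes lower, which added Mrps21 and Mrpl52. That is 5.13% of the set, while the same fit called 8.21% of all genes. At the upper end Mrpl16, the counterpart of bacterial L16, was at 0.34 ± 0.17, Mrpl45 at 0.29 ± 0.15 and Mrps36 at 0.27 ± 0.25, and none was called (edgeR adjusted p = 0.266, 0.289 and 0.598).

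**Figure D2:**
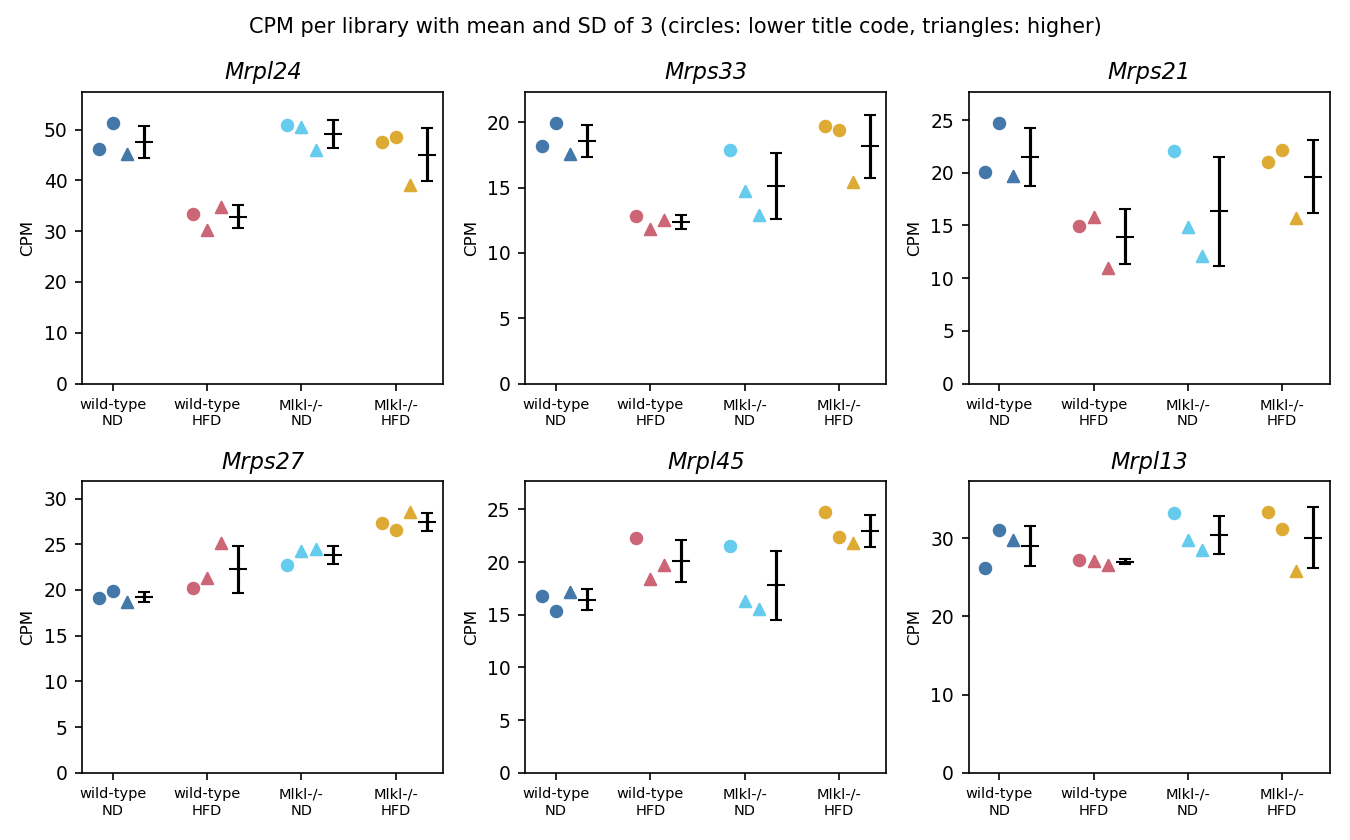
CPM in every library for 6 genes, with a bar for the mean and SD of each group of 3. Circles are livers at the lower title code and triangles those at the higher one; Mrpl24 and Mrps33 are low in the 3 wild-type HFD livers, Mrps27 is lowest in wild-type ND and highest in Mlkl-/- HFD livers, and Mrpl13 runs only from 25.8 to 33.3 CPM.

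Across the whole set the changes were small and mostly negative: 63 of 78 genes had a log2 fold change below 0, with a median of -0.18 against -0.0090 for all genes tested, of which 49% were above 0, but with library size in place of TMM the set's median was 0.017 and that of all genes 0.19, with 42 of 78 genes above 0. The set thus lay below the median gene under both scalings, and its own direction flipped. Without wild-type ND replicate 2 its median was -0.085, with the title code as a covariate -0.095 and with the 8-locus level -0.31. Groups did not overlap for 26 genes that were lower and 3 that were higher with HFD, where 15.2% and 14% of all genes were. The 3 higher ones were Mrpl16, Mrps27 and Mrpl45. Only Mrps21 moved by more than 1.5-fold. The classes had like medians, from -0.14 for large-subunit genes specific to mitochondria to -0.24 for small-subunit genes with a bacterial counterpart. Of the latter, 15 of 16 were below 0.

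**Figure D3:**
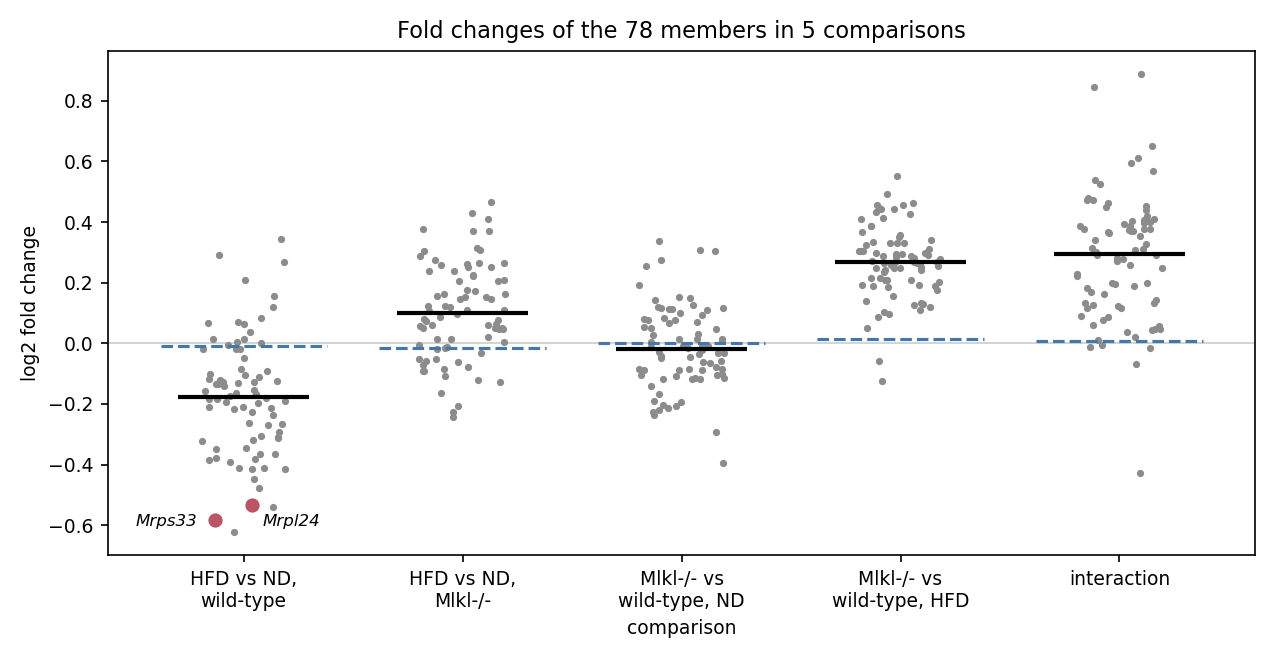
Log2 fold changes of the 78 genes (grey points) in 5 comparisons, with the set's median as a black bar, that of all 18098 genes as a dashed line, and the called genes in red. The set's median is -0.18 for HFD in wild-type and 0.27 for Mlkl-/- against wild-type on HFD with TMM scaling, and 0.017 and 0.098 with library size alone, when the dashed lines move to 0.19 and -0.16.

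HFD against ND in Mlkl-/- livers asks the same without the gene. No gene of the set was called by edgeR, where 0.359% of all genes were called. DESeq2 and limma-voom called 0 of the set as well, and 2.84% and 0.177% of all genes. At an unadjusted p under 0.05, 7 genes of the set were higher and 0 lower, where 6.95% of all genes were higher and 6.64% lower. The largest values were those of Mrpl34 at 0.46 ± 0.18, Mrpl44 at 0.43 ± 0.15 and Mrps18a at 0.41 ± 0.18 (log2, SE; edgeR adjusted p = 0.262, 0.220 and 0.335). The most negative were Mrps22 at -0.24 ± 0.16, Mrpl20 at -0.23 ± 0.15 and Mrps31 at -0.21 ± 0.16 (adjusted p = 0.512, 0.538 and 0.598 by edgeR).

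Mrpl44, a large-subunit protein with the fold of an RNase III, had 15.8, 15.2 and 15.5 CPM on ND and 19.9, 23.3 and 19.3 CPM on HFD in Mlkl-/- livers. These groups did not overlap, and 7 genes of the set were higher in this way and 0 lower, where 8.02% and 7.49% of all genes were. Besides Mrpl44 they were Mrpl9, Mrps27, Mrpl45, Mrps18a, Mrpl3 and Mrps23. Of the set, 57 of 78 were above 0, with a median of 0.10 against -0.017 for all genes, of which 48.1% were above 0, and with the 8-locus level described further on as a term the median was -0.0059 with 37 above 0.

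The library of Mlkl-/- ND replicate 1 moved this comparison most. Without it 2 genes, Mrpl34 and Mrpl45, were called higher by edgeR, which is 2.56% of the set where that fit called 3.92% of all genes, and the median was 0.25. Without Mlkl-/- ND replicate 3 the median was 0.016, without Mlkl-/- HFD replicate 1 it was 0.062 and without Mlkl-/- HFD replicate 3 it was 0.19, and the title code as a covariate gave 0.033. Mrpl34, the counterpart of bacterial L34, had 20.1, 16.2 and 13.0 CPM on ND and 22.7, 26.2 and 19.2 CPM on HFD, so that only replicate 1 of the ND group reached into the HFD range.

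Mrpl45 and Mrps27 were the 2 genes of the set whose diet groups were apart in both genotypes, and both were higher with HFD. Of all genes, 29.1% were apart with diet in wild-type and 15.5% in Mlkl-/- livers. The share of all genes apart in both was not counted. Mrpl45 helps to hold the ribosome at the inner membrane. It had 16.8, 15.3 and 17.2 CPM in wild-type ND, 22.3, 18.4 and 19.7 in wild-type HFD, 21.5, 16.3 and 15.6 in Mlkl-/- ND and 24.7, 22.4 and 21.8 CPM in Mlkl-/- HFD livers. The lowest Mlkl-/- HFD value, 21.8, was just over the highest Mlkl-/- ND value, 21.5. Averaged over genotypes its change with HFD was 0.33 ± 0.11 (log2, SE; edgeR adjusted p = 0.0734). It was called higher by DESeq2, with library size alone, with a filter of 5 CPM, with a term for the title code, and without Mlkl-/- ND replicate 1. For the diet average those fits called 8.29% to 11.2% of all genes and 2.56% to 6.41% of the set.

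Over both genotypes together 1 gene was called, Mrpl24, which fell by 0.33 ± 0.090 (log2, SE; edgeR adjusted p = 0.0380), where 7.19% of all genes were called, 3.62% lower and 3.57% higher. The set's median was -0.042 with 29 of 78 genes above 0, against -0.012 and 48.2% for all genes, and 0.097 against 0.13 with library size alone, which turns its sign. With the 8-locus level as a covariate it was -0.15, and leaving out 1 library took it from -0.078 to 0.049. At an unadjusted p under 0.05, 9 genes of the set passed, where 22% of all genes did. Library size alone instead called 4 genes higher, Mrpl43, Mrpl44, Mrpl45 and Mrps27, and 0 lower, which is 5.13% of the set where it called 10.9% of all genes. Next to Mrpl24 stood Mrps31 at -0.34 ± 0.11 and Mrpl20 at -0.32 ± 0.11 (adjusted p = 0.0848 and 0.0889, edgeR). Mrps31 had 32.1, 38.6 and 36.5 CPM in wild-type ND livers and 28.1, 20.8 and 28.2 CPM in wild-type HFD livers, and 32.9, 39.3 and 44.0 against 38.1, 33.3 and 29.4 CPM in Mlkl-/- livers. After Mrpl45 the highest averages were those of Mrps36, 0.29 ± 0.18, and Mrpl44, 0.27 ± 0.10 (adjusted p = 0.371 and 0.131, edgeR). Without Mlkl-/- ND replicate 1, 5 genes were called on average, Mrpl43, Mrpl45 and Mrps36 higher and Mrpl24 and Mrps31 lower, which is 6.41% of the set against 10.9% of all genes in that fit, and 10 other single libraries, when left out, took the count to 0. Only without Mlkl-/- HFD replicate 2 was Mrpl24 the sole call again.

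Mlkl-/- against wild-type on ND shows the loss of the gene without the diet. No gene of the set was called by edgeR, DESeq2 or limma-voom, which called 0.00553%, 0.271% and 0% of all genes. By edgeR 2 of the set were higher and 0 lower at an unadjusted p under 0.05, where 5.51% of all genes passed, 2.81% higher and 2.7% lower. Mrps22 was at 0.34 ± 0.16, Mrps27 at 0.31 ± 0.13 and Mrpl16 at 0.30 ± 0.17 (log2, SE; edgeR adjusted p = 0.898, 0.816 and 0.935). At the other end Mrps21 was at -0.40 ± 0.22, Mrps33 at -0.29 ± 0.15 and Mrpl34 at -0.23 ± 0.18 (adjusted p = 0.931, 0.925 and 0.967, edgeR). Groups were apart for 4 genes, all higher, Mrpl16, Mrps27, Mrps22 and Mrpl46, where 4.93% of all genes were higher in this way. The set's median was -0.019, and that of all genes 0.00030. Without Mlkl-/- ND replicate 1 the set's median was -0.18, and without Mlkl-/- ND replicate 3 it was 0.061, so its sign rested on single libraries.

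Mlkl-/- against wild-type on HFD shows the same loss under the diet. No gene of the set was called by edgeR, where 0.0276% of all genes were called, 0.00553% higher and 0.0221% lower. DESeq2 called 1, Mrpl24, higher, which is 1.28% of the set where DESeq2 called 2.2% of all genes. At an unadjusted p under 0.05, 20 genes of the set were higher and 0 lower, where 7.21% of all genes were higher and 8.29% lower. Mrps33 was at 0.55 ± 0.16, Mrps21 at 0.49 ± 0.22, Mrpl24 at 0.46 ± 0.13 and Mrpl38 at 0.46 ± 0.18 (log2, SE; edgeR adjusted p = 0.155, 0.295, 0.154 and 0.247). The lowest were Mrpl16 at -0.12 ± 0.17, Mrpl48 at -0.059 ± 0.14 and Mrps28 at 0.050 ± 0.16. Most of the set lay on the same side: 76 of 78 genes were above 0, against 51.7% of all genes, with a median of 0.27 against 0.013, and with library size alone 65 were above 0, with a median of 0.098 against -0.16. This comparison shares its wild-type HFD libraries with the diet comparison in wild-type livers, so the 2 are not separate evidence.

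Groups on HFD were apart for 30 genes of the set, all higher in Mlkl-/- livers, where 10.6% of all genes were higher in this way. They included 18 of the 46 genes with a bacterial counterpart and 11 of the 31 specific to mitochondria, and Mrps36. Mrpl38, which belongs to the large subunit, had 31.2, 31.9 and 32.2 CPM in wild-type and 48.8, 48.3 and 34.4 CPM in Mlkl-/- HFD livers. The Mlkl-/- value of replicate 3 was near the wild-type ones. Mrpl52 had 16.5, 16.0 and 16.1 CPM in wild-type livers and 21.4, 24.1 and 18.998 CPM in Mlkl-/- livers.

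Mrps27, a pentatricopeptide repeat protein of the small subunit, was the gene of the set whose groups were apart in each of the 4 simple comparisons, though none was called. These comparisons share their libraries, so they are not separate evidence. Taken singly, they had 10.5% to 29.1% of all genes apart, and the share apart in all 4 was not counted. Mrps27 had 19.1, 19.8 and 18.7 CPM in wild-type ND livers and 20.3, 21.3 and 25.2 CPM in wild-type HFD livers. It had 22.7, 24.3 and 24.5 CPM in Mlkl-/- ND and 27.3, 26.6 and 28.5 CPM in Mlkl-/- HFD livers. The diet and the genotype went with similar steps: the log2 change with HFD was 0.21 ± 0.13 in both genotypes, and that with Mlkl-/- was 0.31 ± 0.13 on ND and 0.30 ± 0.13 on HFD. The edgeR adjusted p was 0.375 and 0.490 for diet and 0.816 and 0.268 for genotype, and 0.247 for genotype averaged over diets. With library size alone the averaged diet change was called, where that fit called 10.9% of all genes.

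The interaction asks whether the diet response differed between the genotypes. No gene of the set was called by edgeR, DESeq2 or limma-voom, which called 0%, 0.32% and 0% of all genes. By edgeR 12 of the set were higher and 0 lower at an unadjusted p under 0.05, where 5.24% of all genes were higher and 5.19% lower. The lowest adjusted p in the set was 0.338, for Mrps33 at 0.84 ± 0.22. Mrps21 was at 0.89 ± 0.31, Mrpl34 at 0.65 ± 0.25 and Mrpl24 at 0.41 ± 0.18 (adjusted p = 0.409, 0.421 and 0.450, edgeR). Mrpl16 was lowest, at -0.43 ± 0.24. The median was 0.30 against 0.0082 for all genes, with 73 of 78 above 0 against 50.8% of all genes, and 0.18 against -0.10 with library size alone. The title code as a covariate gave 0.17. The fall of Mrpl24 and Mrps33 with HFD in wild-type livers was therefore not shown to differ from the values in Mlkl-/- livers.

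The genotype averaged over diets gave no call by edgeR in the set, where 0.0166% of all genes were called, with 7 genes of the set higher and 0 lower at an unadjusted p under 0.05, where 4.64% of all genes were higher and 6.01% lower. Neither DESeq2 nor limma-voom called any of the set, where they called 1.14% and 0.0111% of all genes. The median was 0.12 against 0.0083 for all genes, and 0.0087 against -0.10 with library size alone. Without Mlkl-/- ND replicate 1 the set's median was 0.046, and with the 8-locus level as a covariate 0.059.

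Single livers spread more than these medians. With TMM scaling, the summed level of the set was 1950 ± 145 CPM in wild-type ND and 1721 ± 76.6 in wild-type HFD livers (SD, n = 3). It was 1934 ± 254 in Mlkl-/- ND and 2070 ± 204 CPM in Mlkl-/- HFD livers. The share of raw counts was 0.191%, 0.204% and 0.174% in wild-type ND and 0.191%, 0.191% and 0.192% in wild-type HFD livers. In Mlkl-/- livers it was 0.205%, 0.170% and 0.166% on ND and 0.225%, 0.200% and 0.189% on HFD. The lower sum in wild-type HFD livers thus depended on the scaling. A median was also taken over the set of TMM-scaled log2 CPM minus the mean of each gene. By it wild-type ND livers stood at -0.030, 0.16 and -0.072 and wild-type HFD livers at -0.16, -0.21 and -0.052. Mlkl-/- ND livers stood at 0.25, -0.061 and -0.17 and Mlkl-/- HFD livers at 0.24, 0.21 and -0.051. The 3 highest libraries by this TMM-scaled median were all Mlkl-/-, 1 on ND and 2 on HFD. The others of both groups lay at or under -0.051.

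**Figure D4:**
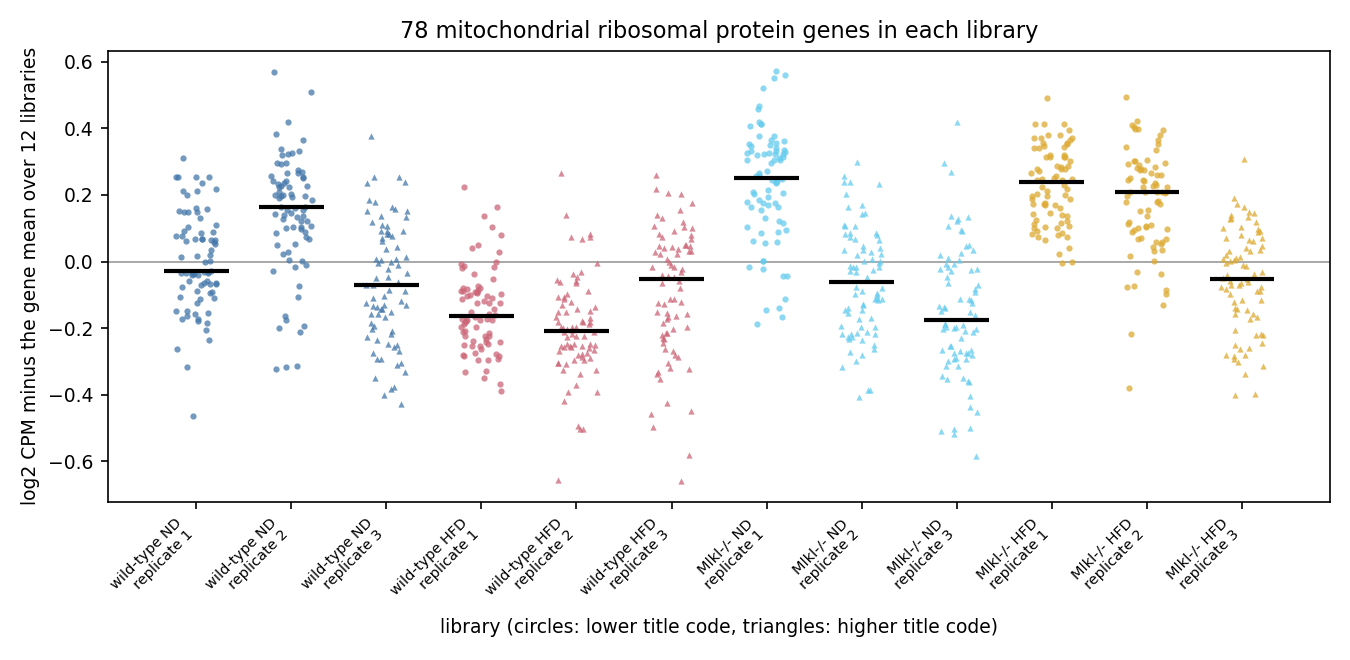
Log2 CPM (TMM scaling) minus the gene's mean over 12 libraries for the 78 genes in each library, with the median as a bar. Circles are livers at the lower title code and triangles those at the higher. Medians run from -0.21 in wild-type HFD replicate 2 to 0.25 in Mlkl-/- ND replicate 1, and the 3 Mlkl-/- livers at the lower code are the highest.

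The titles carry a code after the diet, 23 or 27 on ND and 25 or 29 on HFD, whose meaning the sources used here do not give. The 3 highest libraries by the TMM-scaled median are the Mlkl-/- livers with the lower codes. Across all groups the term for the higher minus the lower code had a median of -0.19 over the set, with 72 of 78 genes below 0, against 0.0020 over all genes. It called 0 genes of the set and 0% of all genes by edgeR. Read within the codes, the Mlkl-/- medians at the lower code were 0.25 on ND against 0.24 and 0.21 on HFD, and at the higher code -0.061 and -0.17 against -0.051. In wild-type livers they were -0.030 and 0.16 against -0.16 at the lower code, and -0.072 against -0.21 and -0.052 at the higher one. Mlkl-/- and wild-type HFD livers stood at 0.24 and 0.21 against -0.16 at the lower code, and at -0.051 against -0.21 and -0.052 at the higher one. In wild-type livers Mrpl24 had 46.3 and 51.3 against 33.4 CPM at the lower code, and 45.2 against 30.3 and 34.9 CPM at the higher one. Its wild-type diet groups did not overlap, so this order was fixed before the split.

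Libraries also split at 8 loci, namely 6 annotated small RNAs, Gm15564 and Lars2. Their sum was 378 to 656 raw CPM in 6 libraries and 3484 to 9239 in the other 6, which were the 3 Mlkl-/- HFD livers, replicates 2 and 3 of wild-type HFD and replicate 1 of Mlkl-/- ND. As a term the high minus the low level had a median of 0.19 over the set, with 68 of 78 genes above 0, and called 0 genes of the set, where it called 0.0884% of all genes higher and 0.0111% lower. With it in the fit no gene of the set was called for HFD in wild-type livers, and Mrpl24 was then at -0.55 and Mrps33 at -0.68. The part of the code and of the 8 loci in the results was not tested further.

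Markers of other liver cells moved with the groups too. The 14 macrophage markers, led by Clec4f and Cd5l, summed to 214 to 283 CPM in wild-type ND, 310 to 452 in wild-type HFD, 194 to 356 in Mlkl-/- ND and 151 to 289 CPM in Mlkl-/- HFD livers. With HFD in wild-type livers 3 of the 14 were called higher, where 2.02% of all genes were, and 13 of 14 were above 0. The 8 markers of the sinusoidal endothelium summed to 163 to 228, 209 to 321, 138 to 214 and 111 to 135 CPM in the same order of groups. The 8 stellate cell markers summed to 196 to 239, 196 to 408, 201 to 232 and 159 to 195 CPM. With HFD in wild-type livers 8 of 8 endothelial and 7 of 8 stellate cell markers were above 0, with 1 called higher in each list. Hepatocyte markers summed to 113222 to 119297 CPM in wild-type ND and 61718 to 88282 CPM in wild-type HFD livers. With HFD 3 of 9 were called lower there, where 2.21% of all genes were. In Mlkl-/- livers they summed to 86867 to 122762 CPM on ND and 86319 to 114669 CPM on HFD. In Mlkl-/- against wild-type livers on HFD, where the set was most one-sided, 9 of 9 hepatocyte markers were above 0, with a median of 0.48 and 0 called. There 0 of 14 macrophage and 0 of 8 endothelial markers were above 0, with medians of -1.045 and -1.037. Of the endothelial markers 2 were called lower, where 0.0221% of all genes were called lower and 0.00553% higher. Of the stellate cell markers 1 of 8 was above 0, with a median of -1.01. No macrophage, endothelial, stellate or hepatocyte marker was at 0 in any library. Of the lymphocyte, neutrophil, cholangiocyte and adipocyte markers tested, 0 were called in the 4 simple comparisons, where 0.00553% to 4.23% of all genes were. Up to 2 of the 5 adipocyte markers were at 0 in a library. The adipocyte markers were low but differed with diet and genotype: 5 of 5 were above 0 with HFD in both genotypes, with medians of 1.96 in wild-type and 2.73 in Mlkl-/- livers. On the diet average 1 was called higher, where 3.57% of all genes were. In Mlkl-/- against wild-type livers 0 of 5 were above 0, with medians of -2.49 on ND and -1.64 on HFD. With HFD 0 of the 5 adipocyte markers had groups apart in wild-type livers, where 29.1% of all genes had. In Mlkl-/- livers 2 had, each higher, where 15.5% of all genes had. In Mlkl-/- against wild-type livers 3 were apart on ND, all lower, and 0 on HFD, where 10.5% and 21.4% of all genes were. The adipocyte markers summed to 2.78 to 5.598 CPM in wild-type ND, 0.881 to 19.96 in wild-type HFD, 0.474 to 1.03 in Mlkl-/- ND and 0.906 to 9.31 CPM in Mlkl-/- HFD livers. The part of cell makeup in these results was not tested.

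**Figure D5:**
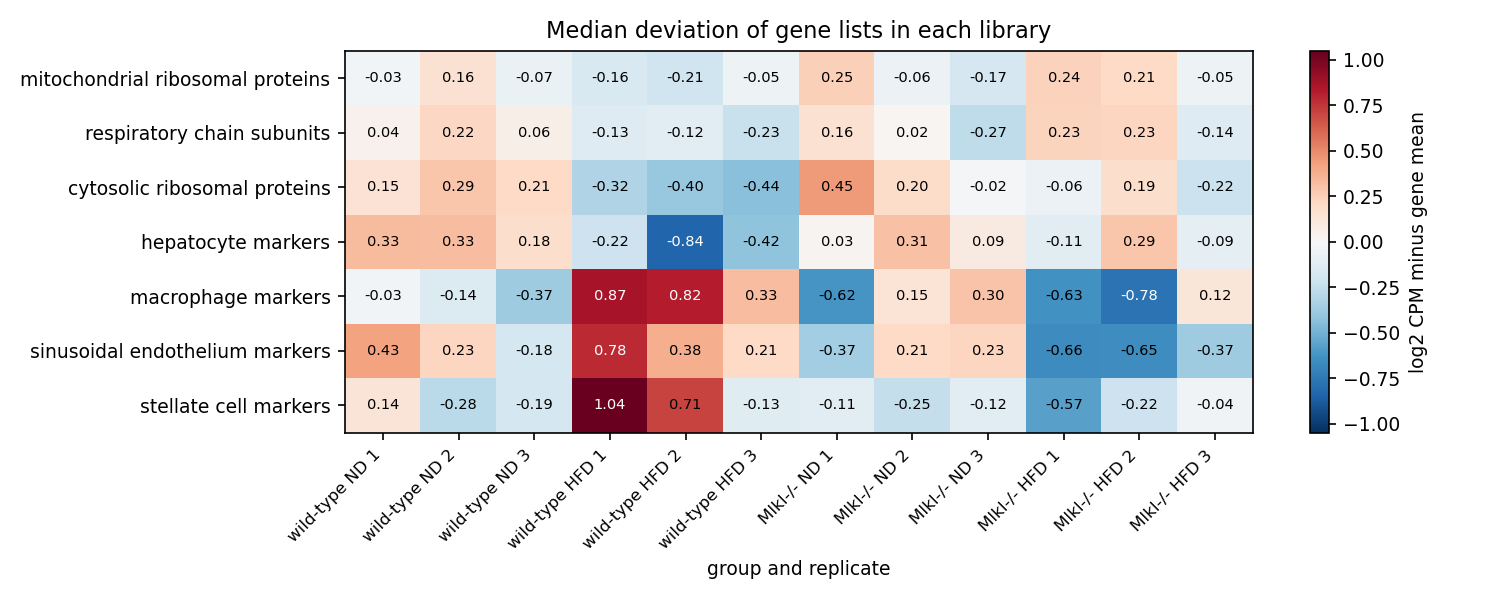
Median over each gene list of log2 CPM minus the gene's mean, for 7 lists (rows) and 12 libraries (columns) with TMM scaling, with the value printed in each cell and red for higher, blue for lower. The set runs from -0.21 to 0.25, the cytosolic ribosomal proteins are at -0.32, -0.40 and -0.44 in wild-type HFD livers, and macrophage markers are at 0.87, 0.82 and 0.33 there.

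Neighbouring gene groups put the size of these values in scale. Of 83 cytosolic ribosomal protein genes 35 were called lower with HFD in wild-type livers, with a median of -0.62, and of 77 nuclear respiratory chain genes 3, with a median of -0.30, against 2 of 78 and -0.18 for the mitochondrial ribosome. Of all genes, 2.21% were called lower in that comparison. In Mlkl-/- livers the medians with HFD were -0.26, 0.12 and 0.10, with 0 called in each list, where 0.359% of all genes were called. On HFD, Mlkl-/- against wild-type gave 0.36, 0.28 and 0.27, again with 0 called, where 0.0276% of all genes were called. All these medians are from the fit with TMM scaling. The difference between the lists was not tested.

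Genes that work with this ribosome were followed in lists of 97 genes, of which 96 were tested. Among the 5 ribosomal proteins with other names, Dap3, Chchd1, Aurkaip1, Ptcd3 and Gadd45gip1, 0 were called in any comparison. Aurkaip1 was at -0.38 ± 0.17 and Gadd45gip1 at -0.22 ± 0.19 with HFD in wild-type livers (log2, SE; edgeR adjusted p = 0.217 and 0.570), close to the set's own range. Of the 27 assembly and rRNA modification factors, 13 translation factors, 11 genes of mitochondrial transcription and mRNA stability and 10 nuclear regulators, 0 were called in any comparison. Oxa1l, which inserts the products into the inner membrane, was at -0.34 ± 0.17, and the elongation factors Gfm1 and Tufm were at 0.42 ± 0.12 and 0.15 ± 0.12 (edgeR adjusted p = 0.258, 0.0682 and 0.514). Tfam, which packs the mitochondrial genome and starts its transcription, was at -0.055 ± 0.12. Gabpa and Yy1 were at -0.20 ± 0.14 and -0.18 ± 0.13. ETS letters were held by 26 and YY1 letters by 11 of the 69 genes with a window.

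Of the 96 genes tested in these lists, 1 was called for HFD in wild-type livers, where 4.23% of all genes were called. On the diet average Gatb was called higher and Atf4 and Nars2 lower, where 3.57% of all genes were called higher and 3.62% lower. Atf4, the transcription factor of the integrated stress response, fell with HFD in wild-type livers, by 0.51 ± 0.13 (log2, SE; edgeR adjusted p = 0.0452), from 68.1 ± 8.61 to 47.9 ± 0.505 CPM (SD, n = 3). In Mlkl-/- livers Atf4 was at -0.29 and not called (adjusted p = 0.362, edgeR). Of the 20 mitochondrial aminoacyl-tRNA synthetases and related enzymes, Gatb rose by 0.40 ± 0.084 (adjusted p = 0.0132) and Nars2 fell by 0.38 ± 0.11 (adjusted p = 0.0451) with HFD averaged over genotypes, by edgeR. Lars2, 1 of the 8 loci, had 160.4 ± 16.8 CPM in wild-type ND and 1654 ± 1263 CPM in wild-type HFD livers (SD, n = 3), and its 3.37 ± 1.25 was not called (edgeR adjusted p = 0.177).

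The Mrps18 family and Mrps36 show how the set's names and its biology part. Mrps18a, Mrps18b and Mrps18c descend from 1 bacterial protein, S18, and are different proteins of the same ribosome. In the classes used here only Mrps18c counts as having a bacterial counterpart, and the other two are counted as specific to mitochondria. Mrps18b was highest, with a mean of 28.6 CPM, then Mrps18a with 18.4 and Mrps18c with 13.3 CPM. With HFD in wild-type livers Mrps18c was at -0.45 ± 0.15, from 12.6, 17.0 and 14.7 to 11.0, 11.0 and 10.4 CPM, Mrps18b at -0.27 ± 0.18 and Mrps18a at 0.082 ± 0.18, and none was called (edgeR adjusted p = 0.111, 0.423 and 0.851). The groups were apart for Mrps18c only. Mrps36 had 7.05, 5.75 and 5.43 CPM in wild-type ND, 6.61, 7.95 and 7.38 in wild-type HFD, 10.8, 6.29 and 4.78 in Mlkl-/- ND and 10.2, 8.76 and 7.99 CPM in Mlkl-/- HFD livers. Its fold changes with HFD, 0.27 ± 0.25 in wild-type and 0.31 ± 0.25 in Mlkl-/- livers, lay above the set's medians, were not called, and were -0.12 in wild-type livers with the 8-locus level as a term.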

How the data were processed

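Liver RNA of 12 mice was measured by 3' end sequencing (Lexogen QuantSeq, per the labels' protocols). Values are raw counts that the authors deposited in a single table, with Ensembl genes as rows, libraries as columns and no normalization. The submitters' processing notes name cutadapt 1.9, HISAT2, featureCounts, limma and mm10. The sources used here do not give the annotation, the strand setting or the handling of reads with several positions. Symbols were found for 51633 of 51912 identifiers and GENCODE M21 positions for 51719.

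Groups came from the genotype and diet labels, and replicate numbers from accession order only. Within each group all pairs of libraries differed by more than sampling noise. Tests used edgeR 4.0.16 in R 4.3.3: filterByExpr (10 counts, 15 in total) left 18098 genes, TMM factors of 0.922 to 1.16 scaled the libraries, and robust glmQLFit with 1 mean per group (8 residual degrees of freedom) gave 7 contrasts, each adjusted by Benjamini and Hochberg over all genes tested. CPM values are scaled by TMM except where called raw, and log2 CPM a prior count of 2. The fit was tested on simulated data. P-values measure the spread between these animals, and counting error covers sampling only.

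The members, lists and tests were chosen with earlier results of these data known. Named are called members, the 3 highest and 3 lowest fold changes in the simple comparisons and the diet average, the 5 highest and 5 lowest levels, the 3 largest and smallest SDs, Mrps36 and the Mrps18 genes. In the other lists they are called genes or the 2 most abundant, and a few more in both were named after their values were seen. Alternatives were RLE factors, library size only, 2 other filters, DESeq2 1.42.0, limma-voom 3.58.1, non-robust dispersions, the compared groups only, terms for the title code and the 8 loci, and each library left out. Promoter windows came from RefSeq (GRCm38.p6). No window was used for Mrpl54, Mrps34, Mrps35, Mrpl13, Mrps28, Mrpl15, Mrpl4, Mrpl38 and Mrpl19.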

Additional observations from a re-analysis of the deposited data

Results flagged for a closer look

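Signal was found at 4 of the 5 pseudogenes that the choice of genes left out. Mrpl48-ps had a mean of 6.56 raw CPM, Mrpl23-ps1 of 5.36, Mrps36-ps2 of 2.14 and Mrps36-ps1 of 1.92, while Mrps36-ps3 had 0 counts. None of the 4 was called by edgeR for HFD in wild-type livers, where 4.23% of all genes were. Mrpl23-ps1 had 6.33 ± 1.43 CPM in wild-type ND and 4.69 ± 0.241 CPM in wild-type HFD livers (SD, n = 3; log2 fold change -0.43 ± 0.24, edgeR adjusted p = 0.342). The sources used here do not give how reads shared by a pseudogene and its parent gene were counted, so the levels of Mrpl48, Mrpl23 and Mrps36 are uncertain. Groups of 3 are too small for the test of single outlying samples.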

How the results depend on the processing

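No paired analysis was possible because the labels give the groups no shared replicate numbers. For HFD in wild-type livers the 2 called members became 1 with RLE factors, with no filter beyond 1 count and with the title code as a term, 0 with library size only and with the 8-locus term, and 4 with only the groups compared. Shares of all genes called were 4.23% at first, and 4.21%, 3.0% and 3.8% in the fits with 1 member. They were 6.09% and 0.873% in the fits with 0 members and 8.21% in that with 4. The member median of -0.18 for HFD in wild-type livers became 0.017 with library size only, and on HFD the genotype median of 0.27 became 0.098. For genotype on HFD DESeq2 called 1 member, not 0, and 2.2% of all genes. The median of all genes shifted to 0.19 and -0.16 in these comparisons. For the diet average the 1 called member (7.19% of all genes) became 4 with library size only (10.9%). It became 2 with the 5 CPM filter (11.2%), DESeq2 (10.8%) and the title code term (8.29%). It became 0 with no filter (4.15%) and the 8-locus term (0.674%). Leaving out 1 library gave 0 to 3 called members for HFD in wild-type and 0 to 2 in Mlkl-/- livers, 0 to 5 for the diet average, and a genotype median on ND of -0.18 to 0.061. Of all genes those fits called 0.342% to 6.63% in wild-type livers, 0.0702% to 3.92% in Mlkl-/- livers and 3.34% to 10.9% on the diet average. Signs turned for Mrps36 with the 8-locus term (-0.12 in wild-type livers, -0.074 on average) and within the lower title code (-0.069 on average), for Mrpl48 (genotype on HFD 0.0015 with the 8-locus term), and for Mrps28 (genotype on HFD -0.12 with library size only, -0.029 with the title code and -0.029 with the 8-locus term). Without 1 library, Mrpl16 ran from -0.28 to 0.032 and Mrps28 from -0.065 to 0.15 for genotype on HFD, and Mrps22 from -0.25 to 0.041 and Mrpl48 from -0.091 to 0.11 for the interaction. None of these values was called, and the cause was not tested. Of the single-gene values under an alternative, 748 kept direction and side of the threshold, 38 lost a call, 12 gained one and 16 turned sign. The set's median per library had a replicate SD of 0.16 (log2), with 3 mice a group, and the lowest count of any member was 117.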
